A study of Mus musculus with 19 samples.

Results

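Tumours of mice that received regorafenib together with an antibody against PD1 (the combination) were compared with tumours of mice that received the antibody alone. Groups were taken from the sample titles, which gave 5 combination and 3 anti-PD1 libraries among the 19 of the series. Every tumour arose in the mouth of a C57BL/6J mouse as a squamous cell carcinoma. All mice, aged 6 weeks at the start, drank water that held 100 µg/ml of 4NQO, a carcinogen that damages DNA, during 10 weeks, and fresh water later. The labels give regorafenib at 5 mg/kg/day, with no separate dose for the combination, and give no dose, clone or schedule of the antibody. Set beside them were 4 libraries on regorafenib alone and 4 on vehicle, since regorafenib over vehicle uses the same drug without the antibody and shares no library with combination over anti-PD1. The other 3 libraries, on an agonist antibody against CD40, entered the fit only for its estimate of the spread. The labels do not tie libraries to individual mice, so p-values reflect only how far these libraries spread, part of which may be technical.

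PD1 restrains T cells, and antibodies against it release them to secrete interferon-gamma. Interferon-gamma acts through transcription factors such as Irf1 on tumour and myeloid cells and raises antigen presentation by class I and class II molecules and the chemokines that attract T cells. Regorafenib, taken by mouth, blocks many kinases at once, including Raf, Kit, Ret, the colony-stimulating factor 1 receptor and the receptors that drive vessel and pericyte growth. Signals from such kinases through ERK switch on immediate early genes within minutes, most of which encode transcription factors.

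The 8 libraries held 16776177 to 23435619 counts, and levels are given in counts-per-million (CPM) after TMM scaling. Defining markers of squamous epithelium were high in all 8, with Krt5 at 1940 to 2548 CPM and Krt14 at 1997 to 3588 CPM. Skeletal muscle, which lies next to oral tumours, had a mean log2 CPM over 18 genes of 10.14 to 10.66 in the combination and 10.24 to 10.57 with anti-PD1. The mean over 11 salivary gland genes was 1.73 to 6.94 in the combination, against 6.06, 5.93 and -1.07 in anti-PD1 libraries 1, 2 and 3. Anti-PD1 1 also had the highest adipocyte mean, 4.10 on the log2 CPM scale over 8 genes, against 2.54 and 3.34 in the other anti-PD1 libraries and at most 3.27 in the combination. Genes of a stomach list averaged 0.55 to 3.06 on that scale in all 4 regorafenib libraries and -2.95 to -1.58 in vehicle. They averaged -2.87 to -1.35 in the combination and -2.76 to -1.10 with anti-PD1. These means hide high sums in single libraries. The summed level was 1088, 286.5 and 0.898 CPM in anti-PD1 1, 2 and 3 and 0.710 to 600 CPM in the combination. The highest sum of the combination was in combination 5, which also had its highest salivary gland mean. None of 11 such genes reached an unadjusted p under 0.05 in combination over anti-PD1, and their part in regorafenib over vehicle was not tested.

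Of 16909 genes tested, 1 rose and none fell when regorafenib was added to anti-PD1 (edgeR's quasi-likelihood test with Benjamini-Hochberg adjustment, adjusted p under 0.05, 0.00591% of genes). At an unadjusted p under 0.05 there were 1052 genes higher (6.22%) and 629 lower (3.72%), together 1681 (9.94%), where 845.45 would be expected with no difference anywhere. By DESeq2 67 genes were higher and 43 lower at the same adjusted threshold, and by limma with sample weights 3 were higher and 7 lower. Across all tested genes the median log2 change was -0.0030. Every combination library lay above every anti-PD1 library for 764 genes (4.52%) and below for 481 (2.84%). These percentages are the background against which counts within gene groups are read below.

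The gene that rose was Pappa (ENSMUSG00000028370.7, GRCm38 chr4:65124174-65357509, whole protein-coding gene), a secreted metalloprotease that cleaves binding proteins of insulin-like growth factors and so frees the growth factor. Its level was 53.4, 92.7, 65.5, 80.3 and 68.9 CPM in the 5 combination libraries, against 38.4, 40.2 and 34.4 CPM in the anti-PD1 libraries. The lowest combination library stood above the highest anti-PD1 library, and means were 72.2 ± 14.9 and 37.7 ± 2.95 CPM (SD, n = 5 and n = 3). The log2 change was 0.94 ± 0.13 (SE), with an adjusted p of 0.0192. In regorafenib tumours Pappa averaged 53.9 ± 3.08 CPM and in vehicle tumours 47.0 ± 3.72 CPM, a log2 change of 0.20 that did not pass the test. The difference between the changes with and without anti-PD1 was 0.74 (adjusted p = 0.0651). Leaving out anti-PD1 1, anti-PD1 3 or combination 4 gave adjusted p-values for Pappa of 0.121, 0.151 and 0.0571, offsets for gene length and GC content gave 0.0716, and a fit of the compared groups alone gave 0.267. With the replicate number as a block in the fit Pappa did not pass either.

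**Figure D1:**
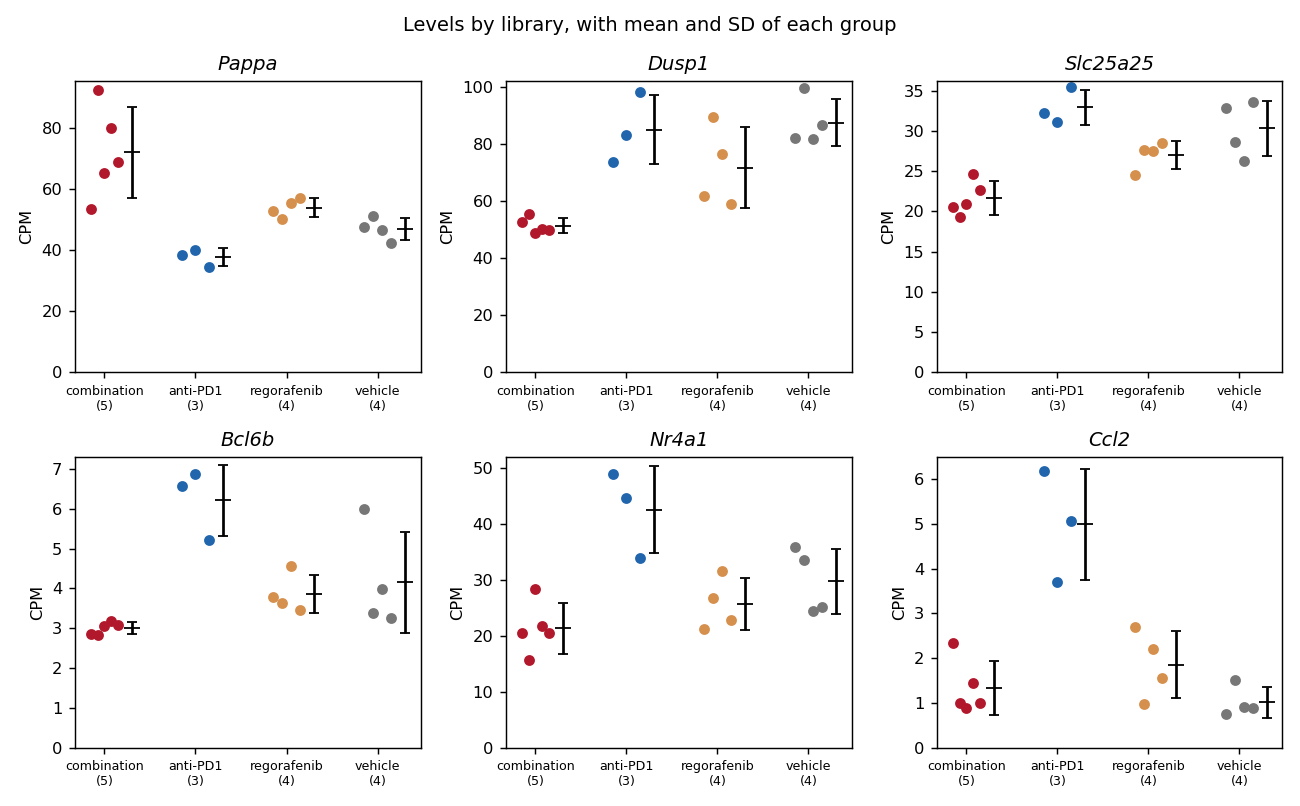
CPM of 6 genes by library (points) in combination, anti-PD1, regorafenib and vehicle tumours, with the group mean and SD (bars). Pappa is higher in all 5 combination libraries than in the 3 anti-PD1 libraries, and Dusp1, Slc25a25, Bcl6b, Nr4a1 and Ccl2 are lower in all 5.

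Next by p-value within each direction, by the naming rule given below, stood 4 genes higher in the combination and 5 lower. None passed the adjusted threshold by edgeR. Across both directions Ccl2, described below and lower, had a smaller p-value than Trp53inp1, Zbtb7c and Zbtb37. DESeq2 called all 9 of these genes, and Dusp1, Slc25a25 and Rnf19b passed under 5 of 18 alternatives each. Myof, a ferlin of membrane repair, was at 92.8, 110, 96.2, 106 and 106 CPM in the combination, against 79.4, 75.9 and 82.7 CPM with anti-PD1 (log2 0.37 ± 0.07, adjusted p = 0.0688). It was also higher with regorafenib than with vehicle, by 0.46 on the log2 scale (adjusted p = 0.00136), so both steps had the same direction. Trp53inp1, a target of p53, had a log2 change of 0.46 ± 0.09, and the zinc finger genes Zbtb7c and Zbtb37 had 0.41 ± 0.08 and 0.38 ± 0.08 (adjusted p = 0.103 in each). All 5 combination libraries lay above all 3 anti-PD1 libraries for each of these 4 genes. Zbtb7c was at 66.4 to 70.3 CPM in the combination, against 43.9 to 57.8 CPM with anti-PD1.

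On the lower side, Slc25a25, a mitochondrial carrier of ATP-magnesium, was at 20.6, 19.3, 20.9, 24.7 and 22.7 CPM in the combination, against 32.2, 31.2 and 35.4 CPM with anti-PD1 (log2 -0.60 ± 0.10, adjusted p = 0.0688). Bcl6b, a zinc finger repressor related to Bcl6, was at 2.86, 2.84, 3.06, 3.18 and 3.09 CPM in the combination, against 6.56, 6.86 and 5.21 CPM with anti-PD1 (log2 -1.04 ± 0.19, adjusted p = 0.0688). The groups did not overlap for either gene, and the combination libraries were close to one another. Amotl2, an angiomotin of cell junctions, and Rnf19b, a RING-type ubiquitin ligase, both had a log2 change of -0.43 ± 0.08 (adjusted p = 0.0688 in each), again without overlap. Amotl2 was also lower with regorafenib than with vehicle (-0.39, adjusted p = 0.00835), while Rnf19b was not (0.14, adjusted p = 0.252). Some further genes, chosen after their values were seen, followed in the same direction: S1pr3, a receptor for sphingosine 1-phosphate (-0.69 ± 0.13), Ptger4, a receptor for prostaglandin E2 (-0.91 ± 0.19), the secreted protease Adamts1 (-0.74 ± 0.15) and Nfkbie, an inhibitor of NF-kappa-B (-0.79 ± 0.17). Their adjusted p-values were 0.0688 for S1pr3 and 0.107 for Ptger4, Adamts1 and Nfkbie.

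Immediate early genes had values mostly below 0. Of 16 tested, 8 were lower at an unadjusted p under 0.05 (all genes, 3.72%) and none was higher. Their median log2 change was -0.27, and 8 lay in every combination library below every anti-PD1 library (all genes, 2.84%). No member passed the adjusted threshold by edgeR, while DESeq2 called 5 of the 16 lower (Dusp1, Nr4a1, Fosb, Jun and Fos). The number lower at an unadjusted p under 0.05 was 8 or 9 without any 1 of the 8 libraries. Dusp1, the phosphatase that switches off p38 and JNK kinases, led the group with 52.6, 55.6, 48.8, 50.3 and 49.7 CPM in the combination, against 73.9, 83.4 and 98.2 CPM with anti-PD1 (log2 -0.73 ± 0.12, adjusted p = 0.0688). The combination libraries were close together and lay wholly below the anti-PD1 libraries. In a fit of the 8 libraries alone Dusp1 was the 1 gene that passed (adjusted p = 0.0485), and Pappa did not (0.267).

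Members of the AP-1 transcription factor came next. Jun was at 79.3, 67.4, 69.9, 79.9 and 69.7 CPM in the combination, against 93.4, 97.8 and 108 CPM with anti-PD1 (log2 -0.45 ± 0.09). Fosb was at 0.909, 1.30, 1.73, 2.21 and 0.648 CPM in the combination, against 3.16, 4.59 and 7.18 CPM with anti-PD1 (log2 -1.88 ± 0.37). Neither overlapped between groups, and Fosb had the largest difference of the group at a low level. Fos was at 8.08 to 10.6 CPM in the combination, against 11.9 to 21.0 CPM with anti-PD1 (log2 -0.76 ± 0.20). Nr4a1, an orphan nuclear receptor induced in activated cells, was at 20.5, 15.7, 28.3, 21.7 and 20.5 CPM in the combination, against 48.9, 44.6 and 33.8 CPM with anti-PD1 (log2 -0.99 ± 0.20). Zfp36, which destabilises cytokine mRNA (-0.22), Myc (-0.31) and Klf2, a factor of quiescent endothelium (-0.47), completed the 8. The rest were close to 0 or uneven: Junb had -0.06, Egr1 -0.13, Klf4 0.02 and Egr2 0.36. In all, 14 of 16 fitted changes were below 0 (all genes, 50.9%), and the mean log2 CPM of the list was 4.39 to 4.68 in the combination, against 4.85 to 5.06 with anti-PD1, without overlap. Among feedback genes that ERK induces, 1 of 11 was lower, Spry4 (-0.53 ± 0.21), and 1 was higher, Spred2 (0.15 ± 0.07), with a median of -0.09.

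Windows around the starts of the 4 immediate early genes with the smallest p-values are shown as the promoters of the group's leading members (RefSeq, GRCm38.p6, with an entry for 12 of 16). Each runs 250 bases before to 50 after the start, on the gene's strand. Capitals mark TGACG on either strand, the core of the cAMP response element TGACGTCA, which itself contains it on both strands. The windows are Dusp1 at chr17:26508423-26508722, Jun at chr4:95052173-95052472 and Fosb at chr7:19309996-19310295, all minus strand, and Nr4a1 at chr15:101266596-101266895, plus strand.
Dusp1: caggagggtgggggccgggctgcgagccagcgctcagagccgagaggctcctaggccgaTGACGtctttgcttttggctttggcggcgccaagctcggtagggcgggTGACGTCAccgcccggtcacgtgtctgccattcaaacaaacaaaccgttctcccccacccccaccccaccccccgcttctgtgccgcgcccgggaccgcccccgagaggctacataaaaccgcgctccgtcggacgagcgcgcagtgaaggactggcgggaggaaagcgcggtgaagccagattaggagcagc
Jun: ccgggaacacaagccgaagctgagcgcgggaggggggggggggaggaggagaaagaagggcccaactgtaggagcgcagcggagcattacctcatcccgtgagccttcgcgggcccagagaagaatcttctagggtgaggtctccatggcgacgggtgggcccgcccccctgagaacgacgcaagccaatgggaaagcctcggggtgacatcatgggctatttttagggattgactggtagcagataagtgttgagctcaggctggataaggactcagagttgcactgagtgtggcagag
Fosb: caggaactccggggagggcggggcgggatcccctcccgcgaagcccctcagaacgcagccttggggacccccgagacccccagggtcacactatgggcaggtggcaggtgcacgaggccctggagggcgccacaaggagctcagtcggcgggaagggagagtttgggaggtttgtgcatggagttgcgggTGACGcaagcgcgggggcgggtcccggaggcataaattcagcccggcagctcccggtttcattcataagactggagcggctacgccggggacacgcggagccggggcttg
Nr4a1: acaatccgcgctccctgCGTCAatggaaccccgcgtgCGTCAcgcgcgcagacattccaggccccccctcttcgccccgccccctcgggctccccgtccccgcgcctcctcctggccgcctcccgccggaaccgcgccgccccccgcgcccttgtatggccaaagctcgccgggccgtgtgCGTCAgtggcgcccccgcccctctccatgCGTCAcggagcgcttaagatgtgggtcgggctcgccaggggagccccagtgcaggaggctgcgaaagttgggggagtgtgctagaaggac
The Dusp1 window held TGACGTCA and a further core, Fosb held 1 core, Nr4a1 held 4 and Jun held none. Among 32851 windows of all genes, 20.8% held the core and 1.79% the full element. A match is a description of the letters.

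Genes of antigen presentation to CD4 T cells had values below 0. Of 7 class II genes tested, 6 were lower at an unadjusted p under 0.05 (all genes, 3.72%). For 6, every combination library lay below every anti-PD1 library (all genes, 2.84%). All 7 fitted changes were below 0 (all genes, 50.9%), with a median of -0.60. None passed the adjusted threshold by edgeR or by DESeq2. Cd74, the invariant chain that guides class II molecules, was at 142, 121, 108, 132 and 104 CPM in the combination, against 165, 166 and 232 CPM with anti-PD1 (log2 -0.63 ± 0.18, adjusted p = 0.226). H2-Aa, the alpha chain of the surface molecule, was at 82.3, 70.5, 65.6, 86.2 and 60.1 CPM in the combination, against 93.7, 94.3 and 143 CPM with anti-PD1 (log2 -0.60 ± 0.21). The beta chains H2-Ab1 (-0.61 ± 0.20) and H2-Eb1 (-0.64 ± 0.20) and the peptide loaders H2-DMa (-0.51 ± 0.16) and H2-DMb1 (-0.51 ± 0.16) had changes of similar size. Ciita, the coactivator that all class II promoters need, was at 3.78 to 5.20 CPM in the combination, against 5.15 to 6.75 CPM with anti-PD1 (-0.45 ± 0.25), and the groups overlapped. In such bulk samples fewer cells of a type and less RNA per cell cannot be told apart.

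Promoters of H2-Aa and H2-Eb1, which encode chains of the surface molecule, are shown because class II genes share promoter elements through which Ciita acts (4 of 7 had a RefSeq entry). Capitals mark ATTGG on either strand, the core of the Y box, which 37.4% of all windows held. H2-Aa lies at chr17:34287774-34288073, minus strand, and H2-Eb1 at chr17:34305617-34305916, plus strand.
H2-Aa: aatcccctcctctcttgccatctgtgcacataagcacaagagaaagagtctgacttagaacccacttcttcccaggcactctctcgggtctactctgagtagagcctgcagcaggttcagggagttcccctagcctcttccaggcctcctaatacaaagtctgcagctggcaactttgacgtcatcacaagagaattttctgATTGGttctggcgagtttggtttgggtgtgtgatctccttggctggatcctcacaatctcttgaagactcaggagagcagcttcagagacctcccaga
H2-Eb1: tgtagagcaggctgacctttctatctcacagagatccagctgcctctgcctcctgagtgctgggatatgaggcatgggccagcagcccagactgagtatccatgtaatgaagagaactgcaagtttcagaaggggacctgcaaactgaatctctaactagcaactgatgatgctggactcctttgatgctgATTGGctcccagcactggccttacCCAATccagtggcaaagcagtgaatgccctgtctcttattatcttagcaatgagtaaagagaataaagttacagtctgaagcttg
The H2-Aa window held 1 match and the H2-Eb1 window 2. The H2-Aa window also held the cAMP response element TGACGTCA once.

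Class I presentation, which displays peptides to CD8 T cells, showed a smaller difference in the same direction. All 11 fitted changes were below 0 (all genes, 50.9%) with a median of -0.36. At an unadjusted p under 0.05, 8 were lower (all genes, 3.72%). For 7, every combination library lay below every anti-PD1 library (all genes, 2.84%). None passed the adjusted threshold by edgeR, while DESeq2 called 1 of the 11 lower, Tapbp. Tapbp, which loads peptide onto class I molecules, was at 80.3, 63.9, 67.2, 76.9 and 69.9 CPM in the combination, against 91.0, 87.8 and 102 CPM with anti-PD1 (log2 -0.39 ± 0.09, adjusted p = 0.128). The immunoproteasome subunits Psmb8 (-0.62 ± 0.19), Psmb9 (-0.57 ± 0.24) and Psmb10 (-0.36 ± 0.16) had values below 0, as had the peptide transporter Tap2 (-0.35 ± 0.12), B2m (-0.41 ± 0.15) and the heavy chains H2-K1 (-0.29 ± 0.13) and H2-D1 (-0.24 ± 0.11). The class I coactivator Nlrc5 was at 35.9 to 51.2 CPM in the combination, against 41.0 to 57.0 CPM with anti-PD1 (-0.07 ± 0.19), with wide overlap.

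Genes that answer interferon-gamma had larger differences than either presentation list. Of 16 tested, 12 were lower at an unadjusted p under 0.05 (all genes, 3.72%) and none was higher, with a median of -0.75. For 4, every combination library lay below every anti-PD1 library (all genes, 2.84%). None passed the adjusted threshold by edgeR, and DESeq2 called 2 lower, Gbp4 and Irf1. Gbp4, a guanylate-binding GTPase, was at 12.9, 6.39, 9.58, 12.3 and 7.82 CPM in the combination, against 17.7, 14.4 and 23.7 CPM with anti-PD1 (log2 -0.92 ± 0.20, adjusted p = 0.120). Irf1, a transcription factor of the interferon response, was at 20.3, 12.9, 12.8, 16.7 and 18.3 CPM in the combination, against 27.8, 19.9 and 29.6 CPM with anti-PD1 (-0.67 ± 0.16). Cxcl10, a chemokine for T cells, was at 9.48, 1.66, 1.78, 9.05 and 1.99 CPM in the combination, against 13.7, 10.96 and 19.6 CPM with anti-PD1 (-1.60 ± 0.65, adjusted p = 0.402). Combination 1 and 4 thus came close to the anti-PD1 libraries while combination 2, 3 and 5 stood far below, a split also seen in Iigp1 and Igtp. Gbp2 had -0.95 ± 0.32 and Cxcl9, which did not reach an unadjusted p under 0.05, -1.30 ± 0.64. The Gbp and Irg genes are families of similar sequence, and reads may be split among them.

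Anti-PD1 3 was the highest of the 3 anti-PD1 libraries for Gbp4, Irf1, Cxcl10, Gbp2 and Cxcl9. The summed level of the 16 interferon-gamma genes was 254, 130, 143, 246 and 155 CPM in the combination, against 286, 264 and 492 CPM with anti-PD1. Without anti-PD1 3, the number of genes lower at an unadjusted p under 0.05 was 3 of 16 for interferon-gamma response, 2 of 11 for class I and 3 of 7 for class II, with medians of -0.54, -0.29 and -0.42. Without any 1 of the other 7 libraries these counts were 8 to 13, 4 to 8 and 6, with the class I count at 4 without combination 2 and at 5 without combination 3. Type I interferon genes had a median of -0.69, and of 17 tested 1 had an unadjusted p under 0.05, Bst2, a membrane tether of viruses (-0.69 ± 0.21). Without anti-PD1 3 the type I median was -0.32 and 1 gene was higher, with 2 lower without anti-PD1 1 or anti-PD1 2 and 3 lower without combination 1 or combination 4.

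**Figure D2:**
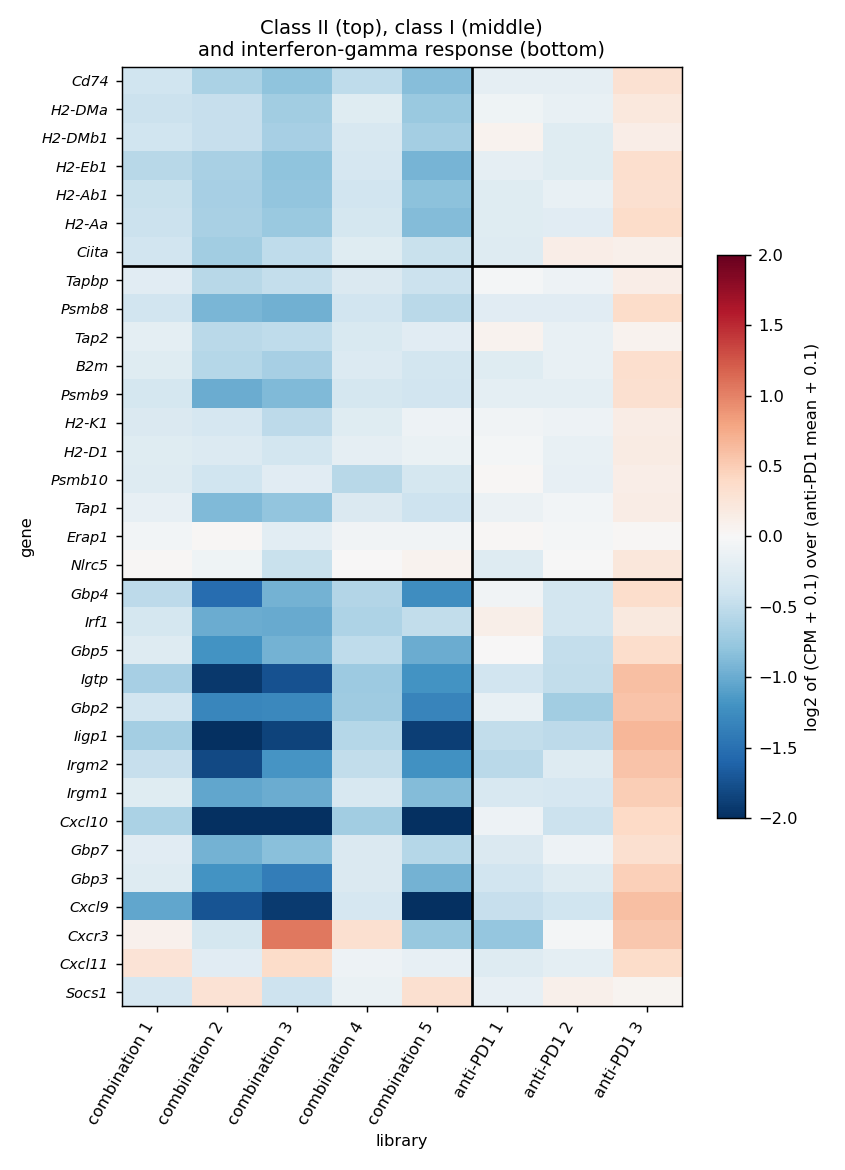
Log2 of CPM over the anti-PD1 mean (0.1 CPM added to both) for class II, class I and 15 interferon-gamma genes (rows) in each combination and anti-PD1 library (columns). For Cxcl10, Iigp1 and Igtp, combination 2, 3 and 5 lie below combination 1 and 4, and anti-PD1 3 is the highest library.

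Cells that carry these molecules were examined through their markers. Of 9 dendritic cell markers tested, 4 were lower at an unadjusted p under 0.05 (all genes, 3.72%). This count became 1 without anti-PD1 3 and 2 without combination 2 or combination 5. Irf8, the transcription factor of dendritic cells and monocytes, was at 4.24, 3.55, 3.18, 5.29 and 5.13 CPM in the combination, against 7.44, 7.08 and 8.39 CPM with anti-PD1 (log2 -0.83 ± 0.20, adjusted p = 0.128), and DESeq2 called it lower. Cd83 (-0.73), Cd209a (-0.50) and Itgax (-0.44) were the other 3, while Zbtb46 (0.16), Batf3 (-0.14) and Fscn1 (0.03) were near 0. The summed level of the dendritic list was 34.9 to 42.0 CPM in the combination and 40.7 to 50.1 CPM with anti-PD1, so the groups overlapped slightly, and its part in the class II difference was not tested.

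Macrophage markers overlapped more. Of 13 pan-macrophage markers 2 were lower at an unadjusted p under 0.05 (all genes, 3.72%), Aif1 (-0.85 ± 0.36) and C1qb (-0.35 ± 0.15). The summed level of the 13 was 155 to 236 CPM in the combination and 186 to 226 CPM with anti-PD1. Of 12 markers of M2-type macrophages 3 were lower, Chil3, Mgl2 and Timd4, and without anti-PD1 3 only 1 was. The pan-macrophage count of 2 was 6 without anti-PD1 2, 5 without combination 1, 3 without combination 4, 1 without combination 2 or 5 and 0 without anti-PD1 3 or combination 3. The scavenger receptor Cd163 was at 14.9 to 22.0 CPM in the combination and 16.6 to 20.6 CPM with anti-PD1 (-0.07 ± 0.17), though with regorafenib alone it was 9.18 ± 1.71 CPM and with vehicle 18.3 ± 3.66 CPM (SD, n = 4 each). The difference between the 2 changes of Cd163 was 0.93 (adjusted p = 0.0838).

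Chemokines and NF-kappa-B targets showed a few lower members each. Ccl2, which attracts monocytes, was at 2.34, 1.01, 0.891, 1.44 and 0.996 CPM in the combination, against 6.17, 3.71 and 5.07 CPM with anti-PD1 (log2 -1.88 ± 0.37, adjusted p = 0.103), without overlap. With Ccl7 (-1.67 ± 0.51) it was 1 of 2 lower at an unadjusted p under 0.05 among 12 CC chemokine genes (all genes, 3.72%). Of 11 NF-kappa-B targets 5 were lower at an unadjusted p under 0.05 (all genes, 3.72%), Icam1, Tnfaip3, Relb, Nfkb2 and Traf1. None was higher, and the median was -0.29. The count was 3 without anti-PD1 2, anti-PD1 3, combination 2 or combination 3. Icam1, an adhesion molecule, was at 17.2, 15.8, 15.4, 17.1 and 17.5 CPM in the combination, against 26.6, 20.2 and 23.4 CPM with anti-PD1 (-0.49 ± 0.14). For the costimulatory ligands of T cells, which did not pass the adjusted threshold, the log2 change was 0.68 ± 0.21 for Cd80 (adjusted p = 0.228) and -0.42 ± 0.20 for Cd86 (adjusted p = 0.485).

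T cell genes were at low levels and had changes of both signs. The target of the antibody, Pdcd1, was at 1.17, 0.946, 0.390, 1.11 and 1.20 CPM in the combination and 0.535, 1.11 and 0.853 CPM with anti-PD1 (0.23 ± 0.36), and its ligand Cd274 at 6.03 to 10.7 CPM and 7.19 to 17.7 CPM (-0.48 ± 0.27). Cd8a, the coreceptor of cytotoxic T cells, was at 0.736, 1.54, 1.28, 1.78 and 0.349 CPM in the combination, against 0.437, 0.720 and 0.808 CPM with anti-PD1 (0.78 ± 0.39, adjusted p = 0.535). For each of these 3 genes the groups overlapped, and none of 8 cytotoxic T and NK cell genes had an unadjusted p under 0.05 (median 0.17). Of 13 checkpoint and regulatory T cell genes 3 were lower at that level (all genes, 3.72%) and none higher, with a median of -0.39. Without anti-PD1 3 only 1 was lower and the median was -0.24, and without anti-PD1 1 a single gene was higher. Foxp3, which defines regulatory T cells, was at 0.650, 0.946, 1.00, 1.16 and 0.897 CPM in the combination, against 1.56, 0.996 and 1.93 CPM with anti-PD1 (-0.70 ± 0.27, adjusted p = 0.376). Il2ra, the high-affinity interleukin-2 receptor chain, was at 1.36 to 2.17 CPM in the combination, against 2.67 to 3.21 CPM with anti-PD1 (-0.60 ± 0.19), and Tigit had -1.01 ± 0.46. Values near 1 CPM rest on few reads in each library.

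The kinases that regorafenib inhibits were mostly level. Of 18 tested, 1 was higher at an unadjusted p under 0.05 (all genes, 6.22%), Ret (0.38 ± 0.18). Another 2 were lower (all genes, 3.72%), Epha2 (-0.31 ± 0.12) and Csf1r, and the median of the list was 0.06. Without 1 library the number higher was 0 to 3, highest without anti-PD1 1, and the number lower 1 or 2. Csf1r, the receptor that macrophages need, was at 31.2, 25.4, 22.2, 25.4 and 25.2 CPM in the combination, against 30.4, 28.8 and 35.8 CPM with anti-PD1 (-0.29 ± 0.11, adjusted p = 0.320). Kdr, the main receptor for vascular endothelial growth factor, was at 56.6, 41.3, 55.6, 34.0 and 37.2 CPM in the combination and 40.6, 38.2 and 42.5 CPM with anti-PD1 (0.15 ± 0.17). Pdgfrb, which marks pericytes, was at 30.6 to 44.0 CPM in the combination and 32.9 to 38.5 CPM with anti-PD1 (0.01 ± 0.14), while regorafenib over vehicle had -0.51 (adjusted p = 0.0385). The difference of the 2 changes of Pdgfrb was 0.52 (adjusted p = 0.207).

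Endothelial genes had changes of both signs. Of 17 tested, 3 were lower at an unadjusted p under 0.05 (all genes, 3.72%) and none was higher, with a median of -0.07. Without anti-PD1 1 a single gene was lower and the median was 0.01, and a fit of the compared groups alone gave 4 lower and 2 higher. Cldn5, a tight junction protein of vessels, was at 10.7, 7.69, 8.13, 8.62 and 7.32 CPM in the combination, against 22.9, 15.4 and 11.9 CPM with anti-PD1 (-0.98 ± 0.21, adjusted p = 0.120), and DESeq2 called it lower. Egfl7 (-0.38 ± 0.15) and Nos3, which makes nitric oxide (-0.40 ± 0.18), were the others. Sox17 and Erg, transcription factors of the same cells, lay above in every combination library, with 7.07 to 9.30 CPM for Sox17 in the combination against 6.64 to 6.85 CPM with anti-PD1, and changes of 0.29 ± 0.16 and 0.25 ± 0.17 that did not pass. Of 16 growth factors 2 were higher at an unadjusted p under 0.05, Pdgfc (0.55 ± 0.18) and Kitl (0.27 ± 0.12). No fibroblast, pericyte or lymphatic gene reached that level in either direction, and without 1 library up to 5 of 14 fibroblast genes, 3 of 11 pericyte genes and 1 of 5 lymphatic genes did.

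A few keratinocyte and cell cycle genes had an unadjusted p under 0.05. Of 12 basal keratinocyte genes 3 were higher at an unadjusted p under 0.05 (all genes, 6.22%) and none lower: Dst, a linker of hemidesmosomes (0.30 ± 0.10), Itga6, the integrin of the basement membrane (0.33 ± 0.11), and Trp63, the master regulator of squamous cells (0.31 ± 0.12). Itga6 was at 174 to 210 CPM in the combination, against 140 to 163 CPM with anti-PD1, without overlap. The count of 3 became 1 without anti-PD1 2, where the median was 0.058 rather than 0.12, and 1 with offsets for length and GC content. Krt14 was at 1997 to 3588 CPM in the combination and 2289 to 2582 CPM with anti-PD1 (0.15 ± 0.20). Of 18 proliferation genes 2 were higher, the replication licensing factors Mcm6 (0.35 ± 0.12) and Mcm3 (0.39 ± 0.16), and Mki67 was at 85.6 to 126 CPM in the combination and 78.3 to 95.7 CPM with anti-PD1 (0.26 ± 0.14). Slc2a1, the glucose transporter, was at 96.4, 123, 97.5, 100 and 127 CPM in the combination and 110, 87.3 and 97.2 CPM with anti-PD1 (0.15 ± 0.13), while regorafenib over vehicle had 0.94 (adjusted p = 0.00136). For NRF2 targets, genes of the defence against oxidants, 2 of 9 were higher, Gclm (0.30 ± 0.11) and Slc7a11 (0.71 ± 0.33), both without overlap between groups. Slc7a11 was at 169 to 351 CPM in the combination, against 121 to 166 CPM with anti-PD1. Without 1 library the proliferation count of 2 ran from 0 (without anti-PD1 2) to 4 (without combination 5), and the NRF2 count from 0 (without anti-PD1 3) to 2. Of 10 heat shock genes 3 were lower (all genes, 3.72%), Hspa1a, Hspb1 and Dnajb1, and Hspa1a shares reads with a near-identical copy. Of 15 clock genes 4 were lower (all genes, 3.72%), the outputs and repressors Dbp, Per3, Nr1d1 and Bhlhe41, and Clock itself was higher (0.19 ± 0.06). The clock count of 4 became 0 without anti-PD1 3 and 2 without combination 5. With offsets for length and GC content 5 clock genes were lower and none was higher, so Clock no longer reached that level. The heat shock count of 3 became 1 without anti-PD1 3, combination 1 or combination 4 and with the same offsets.

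Red cell genes were lower by the unadjusted p. All 5 tested were lower at an unadjusted p under 0.05 (all genes, 3.72%), with a median of -0.70. The beta globin Hbb-bs was at 44.8, 48.8, 81.7, 43.8 and 44.2 CPM in the combination, against 76.9, 90.4 and 76.0 CPM with anti-PD1 (-0.62 ± 0.21, adjusted p = 0.303). Combination 3 alone reached the anti-PD1 level, and the count was 2 of 5 without anti-PD1 2 and 3 of 5 without anti-PD1 1, combination 2 or combination 4. Globin genes are near-identical copies, so reads cannot be assigned to one with certainty. Of 8 adipocyte genes 3 were lower, Adipoq (-1.86 ± 0.57), Cfd and Plin1, and without anti-PD1 1, where they are highest, none had an unadjusted p under 0.05. The count of 3 became 1 without combination 2, 3 or 4.

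Other groups had few members at an unadjusted p under 0.05 (all genes, 6.22% higher and 3.72% lower). None of 9 genes of epithelial-mesenchymal transition, 7 wound keratins, 13 genes of oxidative phosphorylation, 4 B and plasma cell genes, 8 genes of muscle regeneration or 11 salivary gland genes reached it. Hypoxia and glycolysis had 16 tested entries for 15 listed symbols. Of these entries 2 were higher, Pfkp, a glycolytic kinase, and 1 entry of Aldoa, an aldolase. The summed level of the list was 3707 to 5367 CPM in the combination and 4643 to 5086 CPM with anti-PD1, with overlap. Of 13 p53 targets Trp53inp1 was higher. Of 16 suprabasal keratinocyte genes Sprr3 was higher and Krt36, a hair-type keratin, was lower. A single member was lower of 10 stress response genes (Atf4, their transcription factor), of 10 neutrophil genes (Ngp), of 8 mast cell genes (Hdc, which makes histamine), of 11 matrix protease genes (Mmp9) and of 9 Schwann cell genes (S100b). In anti-PD1 1, 2 and 3 Ngp was at 4.96, 1.05 and 0.404 CPM, Hdc at 4.23, 1.77 and 1.48 CPM and S100b at 6.80, 2.38 and 2.20 CPM. Mmp9 was at 6.51, 2.66 and 5.25 CPM there and Atf4 at 216, 200 and 203 CPM. Under alternatives the change of Hdc came as close to 0 as -0.10, and S100b had 0.041 without anti-PD1 1. Of 18 skeletal muscle genes Neb was higher. Without 1 library each of these counts stayed between 0 and 3. The count of p53 targets stayed at 1, and the higher count of hypoxia and glycolysis was 1 or 2.

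**Figure D3:**
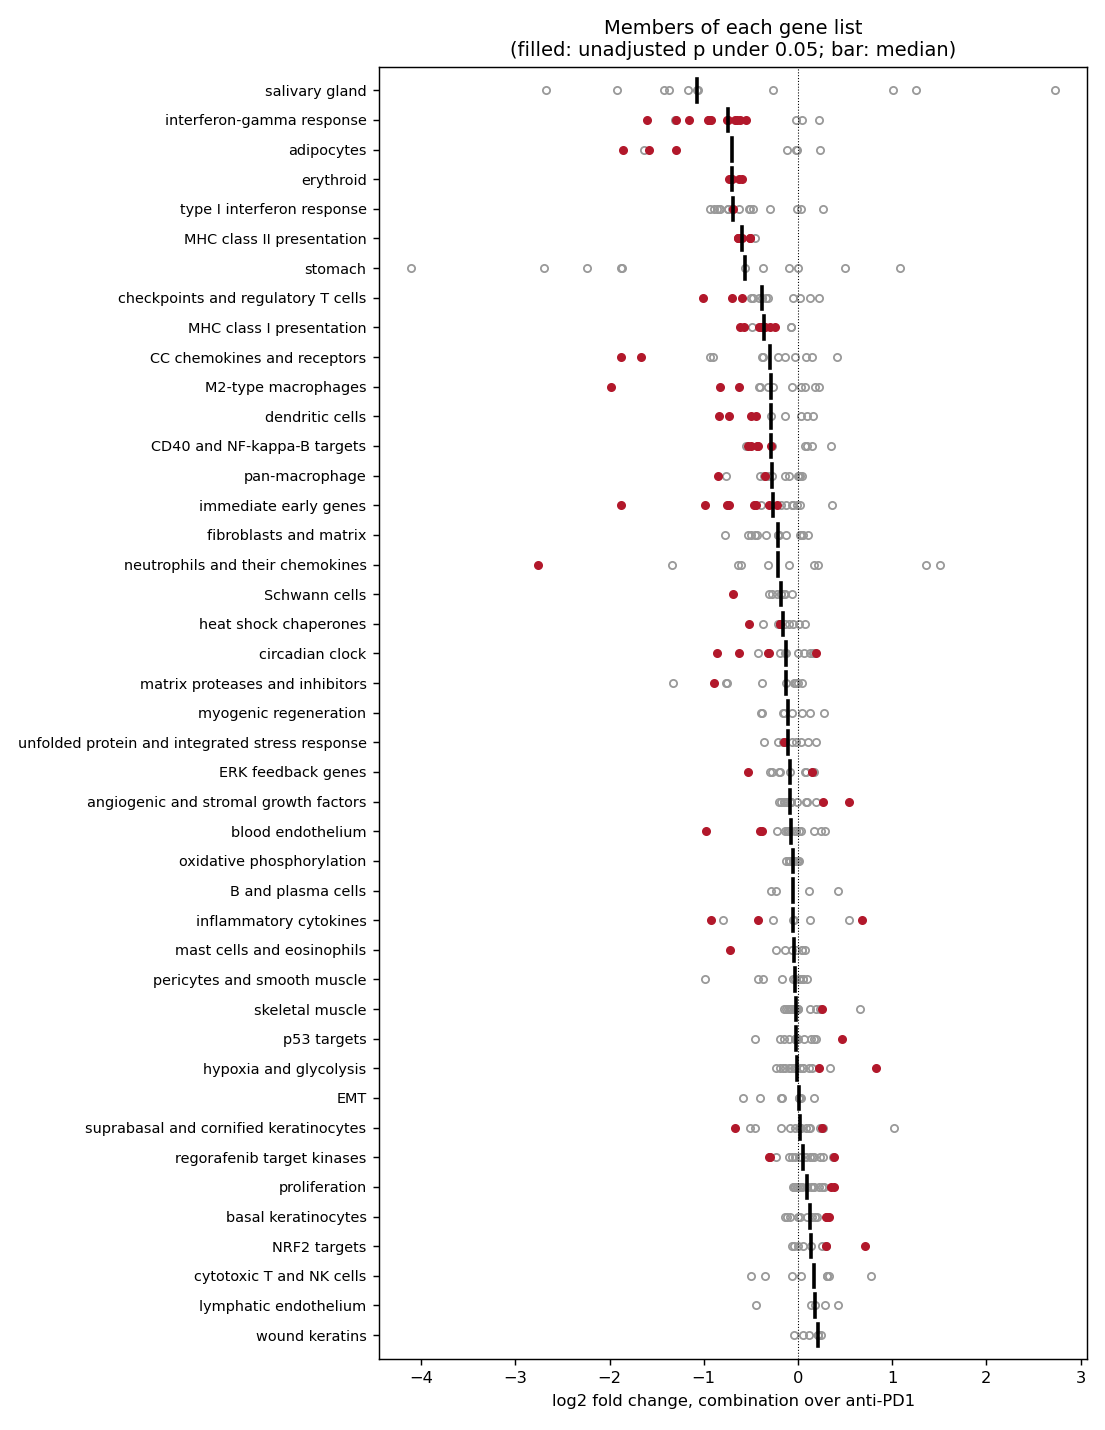
Log2 fold change of combination over anti-PD1 for the members of each gene list (circles, filled at an unadjusted p under 0.05) with the list's median (bar). All class I and class II members and 14 of 16 interferon-gamma members lie to the left of 0, and keratinocyte and proliferation members lie around or slightly to the right.

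Whether regorafenib acted differently with the antibody than without it was tested as the difference of the 2 changes. For 106 genes (0.627% of those tested) this difference passed the adjusted threshold, with 76 above 0 (0.449%) and 30 below (0.177%). All 76 had a change above 0 in combination over anti-PD1 and below 0 in regorafenib over vehicle, and 65 of them passed the test in regorafenib over vehicle. Of the 30, 28 had the opposite signs, below 0 with the antibody and above 0 without it, and 23 passed in regorafenib over vehicle. The 76 had a median change of 0.26 with the antibody and -0.40 without it, and the 30 had -0.21 and 0.40. Genes chosen by the size of this difference tend to have opposite signs in the 2 changes. These signs and medians are therefore no separate result. Without any 1 of the 16 libraries compared, 11 to 177 genes passed, the lowest number without anti-PD1 1 and the highest without anti-PD1 2.

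Among the 76 genes with a difference above 0 (all genes, 0.449%) were 2 of 18 skeletal muscle genes, Neb and Ryr1, and 1 of 12 basal keratinocyte genes, Dst. Dmd, which encodes dystrophin and is outside that muscle list, was at 93.1, 100, 107, 89.0 and 87.2 CPM in the combination, against 76.4, 88.5 and 69.3 CPM with anti-PD1, a log2 change of 0.29 ± 0.10. With regorafenib it averaged 56.5 ± 4.12 CPM and with vehicle 92.6 ± 3.03 CPM (SD, n = 4 each), a change of -0.71. The difference was 1.00 (adjusted p = 0.0096), and with offsets for length and GC content it was 0.66 and did not pass (adjusted p = 0.0543). Sgcd, a sarcoglycan of the dystrophin complex, had 0.37 with the antibody and -1.10 without (difference 1.47, adjusted p = 0.0096), and Neb, the giant protein of the thin filament, had 0.26 and -0.66 (difference 0.92, adjusted p = 0.0138). Also among the 76 were Vps13c, a lipid transfer protein (difference 0.82), and the imprinted noncoding RNA Rian (1.24). With the same offsets Rian had 0.97 and did not pass (adjusted p = 0.0549). The mean log2 CPM of the skeletal muscle list was 10.14 to 10.66 in the combination and 10.24 to 10.57 with anti-PD1, and 9.71 to 10.15 with regorafenib and 10.12 to 10.45 with vehicle. With that mean as a covariate 29 genes passed, 26 of them among the 106.

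Among genes with a difference below 0 were 1 of 9 inflammatory cytokine genes (Ptgs2), 1 of 12 CC chemokine genes (Ccl2), 1 of 11 ERK feedback genes (Dusp6), 1 of 7 class II genes, 1 of 10 heat shock genes and 1 of 5 red cell genes (all genes, 0.177%). Ptgs2, the inducible cyclooxygenase, was at 4.59, 4.97, 3.01, 3.71 and 3.54 CPM in the combination, against 11.3, 5.31 and 5.97 CPM with anti-PD1 (-0.92 ± 0.33), and averaged 12.3 ± 5.77 CPM with regorafenib and 3.47 ± 0.935 CPM with vehicle. The difference was -2.74 (adjusted p = 0.0192), with opposite signs with and without the antibody. Ccl2 also had -2.74 (adjusted p = 0.0377), with -1.88 in combination over anti-PD1 and 0.86 in regorafenib over vehicle. Dusp6, a phosphatase of ERK, had a difference of -0.84, Rnf19b -0.57, Dnajb1 -0.54, Arc, an immediate early gene of neurons, -1.45, and Hbb-bs -1.39. Of the class II genes H2-DMb1 passed, at 6.34 ± 0.710 CPM in the combination and 9.01 ± 1.21 CPM with anti-PD1, and 7.30 ± 1.51 CPM with regorafenib and 5.14 ± 0.700 CPM with vehicle. Its difference was -1.02 (adjusted p = 0.0478). The 7 class II genes had a median change of -0.60 with the antibody and 0.38 without it. For class I the medians were -0.36 and 0.13, for immediate early genes -0.27 and 0.12, and for interferon-gamma response -0.75 and -0.16. Ptgs2, Dusp6, Dnajb1, Arc and H2-DMb1 were named after their values were seen.

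**Figure D4:**
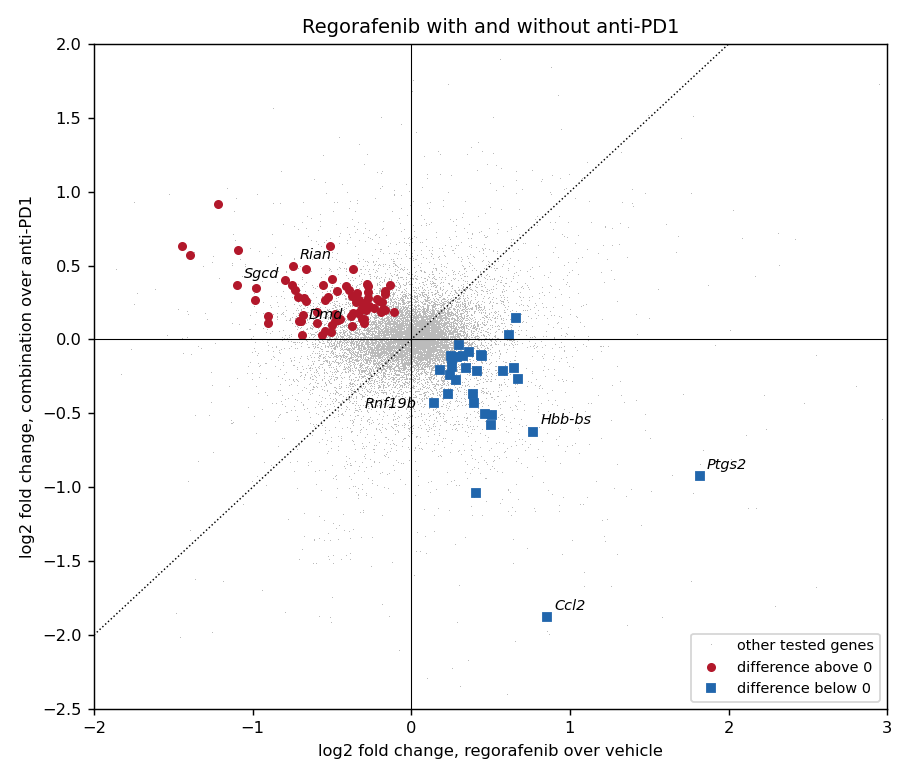
Log2 fold change of regorafenib over vehicle (x) against combination over anti-PD1 (y), with the 106 genes whose difference passed the test coloured and other genes in grey; the dotted line marks equal changes, and genes beyond the axes are not drawn. Genes with a difference above 0 lie at upper left and those below 0 mostly at lower right.

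The length of a gene's exons moved with both comparisons. Genes higher in the combination at an unadjusted p under 0.05 had exons of 6959.5 bases at the median and those lower 3212, compared with 3942 for all tested genes. The 76 genes with a difference above 0 had a median of 13093.5 bases and the 30 below 0 had 2985.5. In the shortest of 10 equal groups of genes by length the median change was -0.05 in combination over anti-PD1 and 0.07 in regorafenib over vehicle, and in the longest group 0.09 and -0.09. Combination over anti-PD1 was thus higher for longer genes while regorafenib over vehicle was lower. With offsets for length and GC content 15 genes passed for the difference, 13 of them among the 106, and none passed for combination over anti-PD1. The list medians with these offsets were -0.52 for class II, -0.27 for class I, -0.77 for interferon-gamma response and -0.18 for immediate early genes.

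**Figure D5:**
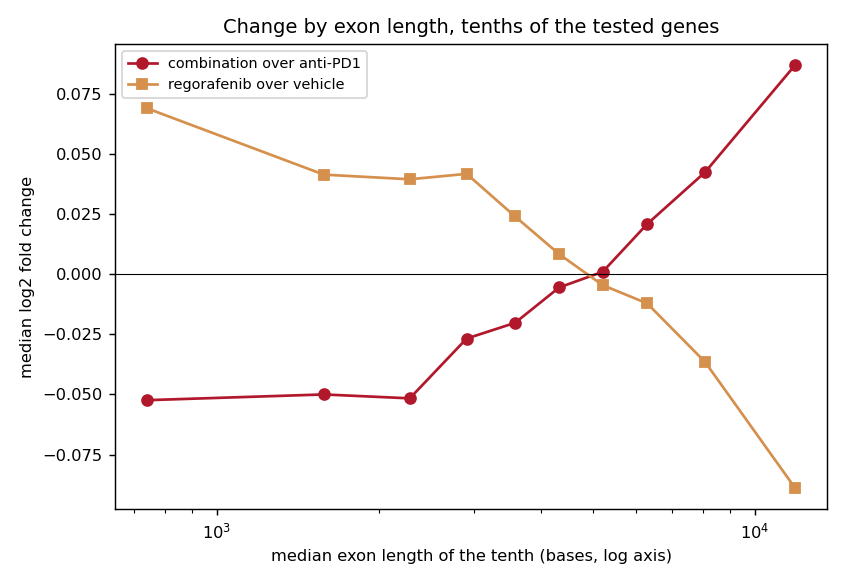
Median log2 fold change in 10 equal groups of tested genes by exon length (x, log axis) for combination over anti-PD1 (circles) and regorafenib over vehicle (squares). The lines cross, with the shortest group at -0.05 and 0.07 and the longest at 0.09 and -0.09.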

How the data were processed

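Per the labels' protocols, total RNA came from an AllPrep kit and was sequenced as TruSeq Stranded mRNA libraries. The tools named are STAR 2.7.2a and cutadapt 2.4, with the build GRCm38, per the submitters' processing notes. How reads were counted (tool, strand, gene models) is not given in the sources used here, so overlapping, antisense and near-identical genes are uncertain. The authors' deposited table holds whole-number counts for 55487 Ensembl genes, not normalized. Names, positions and exon lengths came from GENCODE M21, which matched 55227 IDs without the version, and promoters from RefSeq on GRCm38.p6.

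Genes with low counts were removed with filterByExpr, which left 16909. edgeR 4.0.16 in R 4.3.3 scaled libraries by TMM and fitted a robust quasi-likelihood model of the 5 groups on all 19 libraries, with 14 residual degrees of freedom. Two-sided p-values received Benjamini-Hochberg adjustment across the 16909 genes, and 0.05 was the threshold. CPM are from TMM-scaled counts, with a prior count of 2 before logs. Alternatives used DESeq2 1.42.0, limma 3.58.1 and other scalings, filters, covariates and libraries. The fit was tested on simulated data.

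Members and the 44 gene lists were chosen with earlier results of these data known. Genes were named by rule: all that passed and the 5 smallest p-values per direction, up to 3 members of a list (or the 1 with the smallest p), 12 fixed genes and the 5 smallest p-values of the difference, among genes of at least 1 CPM. Other members are list members in order of p. Some genes that met the rule are not reported here. No 2 libraries agreed within sampling noise.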

Additional observations from a re-analysis of the deposited data

Results flagged for a closer look

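Among 67 named genes examined, chance marks about 1 group in 20 as holding a sample far from the others. In the combination group this held for Il2ra in combination 2 (1.36 CPM), Pdgfc in combination 4 (5.68 CPM), Hbb-bs in combination 3 (81.7 CPM), Ngp, a granule protein of neutrophils, in combination 5 (1.10 CPM), Dcpp2, a salivary protein, in combination 5 (17.98 CPM), Mucl3 in combination 4 (0.0481 CPM, with the other 4 libraries at 0) and Ighm in combination 5 (13.3 CPM). Combination 5 had the highest salivary gland mean of the combination libraries.

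The change with regorafenib differed between tumours with and without the antibody (edgeR's quasi-likelihood test of the difference, adjusted p from 0.0096 to 0.0484) for these named genes. It was higher with the antibody for Sgcd by 1.47 on the log2 scale, Rian by 1.24, Dmd by 1.00, Neb by 0.92, Vps13c by 0.82, Zbtb37 by 0.66 and Dst by 0.64. For Ccl2 the difference was -2.74, for Hbb-bs -1.39 and for Rnf19b -0.57. Sgcd, Rian, Dmd and Vps13c were named for their small p-values in this same test, so the naming rule ensured that they appear here. With offsets for length and GC content Rian and Dmd did not pass that test (adjusted p = 0.0549 and 0.0543).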

How the results depend on the processing

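Combination over anti-PD1 gave 1 gene past the threshold. Other settings gave 10 with no filter on low counts, 110 by DESeq2, 10 by limma with sample weights, 6 with the skeletal muscle covariate, 2 with the salivary gland covariate, and 0 with offsets for length and GC content or with the replicate block, under which Pappa had an adjusted p of 0.0925. Leaving out 1 library gave 0 to 15, with 15 without anti-PD1 2 and 0 without anti-PD1 1, anti-PD1 3 or combination 4. A fit of the compared groups alone gave 1 gene, Dusp1. For the difference of the changes, with 106 genes, other settings gave 582 by DESeq2, 200 by limma, 164 with only the groups compared, 29 with the muscle covariate, 297 with the salivary covariate, 15 with length and GC offsets and 36 with the replicate block. Leaving out 1 library gave 11 to 177: 34, 13 and 15 without vehicle 1, 3 and 4, 11, 177 and 13 without anti-PD1 1, 2 and 3, 37, 53, 38 and 24 without combination 1, 2, 3 and 4, and 33, 56 and 12 without regorafenib 1, 2 and 4. RLE scaling gave 1 and 106, and an empirical Bayes step that was not robust, chosen after seeing the data, gave 1 and 78. Whether the replicate numbers pair the samples is not known. Deviations of same-numbered libraries correlated at 0.0019, -0.14 and 0.37, which cannot decide it, and number 5 occurs in the combination only. The causes of these shifts were not tested, except that leaving out libraries leaves fewer samples.

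Of 1198 values of named genes under alternatives, 1148 kept direction and side of the threshold, 6 no longer passed, 36 newly passed and 8 turned sign. Those that turned were close to 0: Pdcd1 was -0.010 by limma and -0.0080 without anti-PD1 1, Pdgfrb was -0.013 with the muscle covariate, -0.041 without anti-PD1 3, -0.034 without combination 1 and -0.068 without combination 3, S100b was 0.041 and Tagln 0.018 without anti-PD1 1. Over all fits that left out 1 library, Pdcd1 ran from -0.0080 to 0.47, Pdgfrb from -0.068 to 0.073, S100b from -0.97 to 0.041 and Tagln from -0.61 to 0.018. At an unadjusted p under 0.05 the settings with no gene past the threshold had 1751 genes with the block, 1305 with offsets, 1434 without anti-PD1 1, 1450 without anti-PD1 3 and 1551 without combination 4. With 3 anti-PD1 libraries, 1 library can decide a count.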
